A study of Mus musculus with 4 samples.

Results

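Serpins are a family of protein-coding genes, most of which encode protease inhibitors, and here they were followed in mouse mammary basal cells with and without miR-205. Members were the protein-coding gene rows whose symbol begins with Serpin and that held 10 or more counts summed over the 4 libraries. There were 28 such genes among 59 protein-coding serpin rows, of 34615 gene rows in all and 13903 protein-coding rows that met the same minimum. The members were chosen by their summed count, and the gene set was proposed with results of these libraries known, so the values below describe the members and the tests are those fitted over all genes. The members with the lowest sums were Serpina1d with 16 counts, Serpinb9e with 19 and Serpinb6c, Serpinb9b and Serpinb12 with 20 each, and the closest genes under the minimum were Serpinb1b with 8 and Serpina1e with 5. A further 20 protein-coding serpins had no count in any library, among them the whole Serpinb3 group. Serpinf1 and Serpinf2 were not analysed here.

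RNA was sequenced from 2 KO libraries (miR205fl/flmTmGfl/fl cre+) and 2 WT libraries (WTfl/flmTmGfl/fl cre+). Both kinds of mammary cell carried the mTmG reporter, which turns from red to green on recombination, both received a Cre adenovirus, and both were grafted into SCID-Beige hosts aged 3 weeks, which lack functional lymphocytes. GFP+ cells of the CD24+CD49fhigh gate were sorted from a pool of 40 outgrowths after 8 weeks, so a library is a pool of cells rather than an animal, and GFP marks cells that met Cre whether or not both miR-205 alleles were lost. Mir205 itself gave no check of the genotype in these counts, and the groups rest on the sample labels. The comparison addresses what basal cells express differently when miR-205 is deleted.

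A serpin presents a loop that a protease cuts as it would a substrate. The cut springs a change of shape that traps the protease in a covalent complex, so most serpins are used up once. Clade A serpins are mostly secreted, clade B serpins mostly stay inside the cell, and clade E serpins restrain the plasminogen activators at the cell surface and in the matrix. In the mammary gland, maspin (Serpinb5) is a known product of the myoepithelial layer, and plasminogen activation is known for its part in remodeling of the gland. Mice carry a run of closely related Serpina3 genes on chromosome 12, where humans have SERPINA3, which encodes alpha-1-antichymotrypsin.

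The mature microRNA and its matches are shown because a transcript with a match could respond directly to its loss. Capitals mark the seed in mmu-miR-205-5p, bases 2 to 8 (RefSeq, GRCm38.p6, chr1:193507503-193507524, minus strand), and the seed match in 3' UTRs of transcripts in GENCODE M21, a GRCm38 annotation.
mmu-miR-205-5p: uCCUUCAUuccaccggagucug
Serpinb2, 8mer: catttaatttaataATGAAGGAaaaa
Serpinb6b, 7mer-m8: ctaacatttagcagATGAAGGtgag
Serpine2, 7mer-A1: ctgggatgctgtagTGAAGGAtgag
The longest annotated 3' UTR of each gene was searched on the transcript strand for ATGAAGGA (8mer), ATGAAGG (7mer-m8), TGAAGGA (7mer-A1) and TGAAGG (6mer), and each gene was counted once under the longest form, with the 7mer-m8 ahead of the 7mer-A1. An 8mer or 7mer-m8 was present in 5 of 28 members (17.9%) and in 1630 of 13816 protein-coding genes with the same minimum count (11.8%). Beside Serpinb2 and Serpinb6b these were Serpinb9b, Serpinb9e and Serpinb9f, which had 2, 0 and 0 counts in KO replicate 1, 0 each in KO replicate 2, 0, 19 and 0 counts in WT replicate 1, and 18, 0 and 32 counts in WT replicate 2. Any of the 4 forms was present in 11 members (39.3%) and in 36.9% of those protein-coding genes, whose 3' UTRs were longer, with a median of 1143 bases against 718 for the members. None occurred in the 3' UTRs of Serpina3f, Serpina3g, Serpina3i, Serpina3m or Serpina3n, whose lengths ran from 330 to 734 bases.

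The promoters of the Serpina3 genes are shown because these genes were low together in KO. Each runs from 250 bases before to 50 bases after the start of the gene on the plus strand (RefSeq, GRCm38.p6). Capitals mark TTCNNNGAA, a STAT-type motif, and GGG and TTTCC with any 2 bases between them, an NF-kB-type motif, searched on both strands.
Serpina3n, chr12:104406458-104406757: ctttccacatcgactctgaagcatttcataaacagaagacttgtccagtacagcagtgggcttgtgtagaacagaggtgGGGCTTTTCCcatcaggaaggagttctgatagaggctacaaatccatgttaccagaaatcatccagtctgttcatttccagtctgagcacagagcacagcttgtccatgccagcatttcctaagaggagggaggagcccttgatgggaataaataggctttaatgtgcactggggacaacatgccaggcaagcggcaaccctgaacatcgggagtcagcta
Serpina3g, chr12:104235897-104236196: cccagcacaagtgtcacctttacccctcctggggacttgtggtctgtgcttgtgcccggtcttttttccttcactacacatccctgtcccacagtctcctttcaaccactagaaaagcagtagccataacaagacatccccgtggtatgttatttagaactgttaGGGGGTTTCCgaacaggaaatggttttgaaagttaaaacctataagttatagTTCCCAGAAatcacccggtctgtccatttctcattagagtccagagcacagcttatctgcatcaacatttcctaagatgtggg
Serpina3i, chr12:104262872-104263171: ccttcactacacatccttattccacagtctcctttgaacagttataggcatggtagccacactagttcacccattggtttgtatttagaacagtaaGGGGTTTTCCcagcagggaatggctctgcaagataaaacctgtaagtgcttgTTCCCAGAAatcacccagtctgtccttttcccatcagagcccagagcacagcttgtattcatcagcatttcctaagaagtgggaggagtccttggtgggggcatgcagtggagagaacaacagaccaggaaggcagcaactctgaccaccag
Serpina3f, chr12:104214294-104214593: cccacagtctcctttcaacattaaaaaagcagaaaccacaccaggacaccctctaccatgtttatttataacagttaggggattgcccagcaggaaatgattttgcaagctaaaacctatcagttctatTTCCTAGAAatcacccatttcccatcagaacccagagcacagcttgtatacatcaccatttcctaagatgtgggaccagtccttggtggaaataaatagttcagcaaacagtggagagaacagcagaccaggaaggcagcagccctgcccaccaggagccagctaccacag
The STAT-type motif was present in the Serpina3f, Serpina3g and Serpina3i promoters and in 8.3% of all 32851 promoters of this length. Among the 23 members with a promoter in the table it was present in 5, the others being Serpinb2 and Serpinb6a, and Serpina3n had no match to these letters in this window. The NF-kB-type motif was present in Serpina3g, Serpina3i and Serpina3n and in 1.63% of all promoters. Unmarked motifs searched on both strands were TGANTCA, an AP-1-type motif, in 6 of the 23 members and 7.81% of all promoters, and GGAATG, a TEAD-type motif, in 3 of the 23 and 14.7% of all. Members were counted as genes with a match in any of their listed promoters, whereas the percentages count single promoters, so the units differ. Serpina3i was the Serpina3 gene with a TEAD-type match, and no Serpina3 promoter in the table held the AP-1-type motif. The marked motifs did not overlap each other. Over a global alignment, the promoters of Serpina3f and Serpina3i were identical to that of Serpina3n at 64.3% and 64.5% of aligned positions. The Serpina3g window gave 41.4%, but it is offset from the others. Its marked motifs begin at bases 166 and 218, against 97 and 149 in Serpina3i, so this value does not measure how alike the promoters are. Serpina3m was among the 5 members with no promoter in the table used.

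Libraries held 60030932 and 47953972 gene counts in KO and 53067076 and 57650462 in WT. KO replicate 2 stood apart. It had a count in 12679 genes, against 18897 in KO replicate 1 and 18027 to 18139 in WT. CPM are counts relative to library size after TMM scaling. Log2 CPM of the tested genes gave a Pearson r of 0.826 to 0.842 for the pairs with KO replicate 2 and of 0.926 to 0.949 for the other pairs, across genes that are no replicates of each other. Of the 28 members, 25 and 14 had a count in KO replicates 1 and 2, and 23 and 26 in WT replicates 1 and 2. Without a count in KO replicate 2, but with one in each other library, were 8 members, and 19% of protein-coding genes with the minimum count showed the same. Absence from KO replicate 2 alone is therefore no result about a serpin, and the fold changes of members at 5 CPM or more are also given without that library. Counts and list medians without it were added after seeing the data. The basal keratin Krt5 stood at 1773 and 1512 CPM in KO and at 1219 and 1219 CPM in WT. Acta2, smooth muscle actin, stood at 3707 and 2264 CPM in KO and at 2493 and 2331 CPM in WT. The basal factor Trp63 stood at 901 and 1309 CPM in KO and at 1049 and 903.5 CPM in WT. The contractile genes Myh11 and Mylk had 409 to 1854 CPM in KO and 582 to 1813 CPM in WT. Of 10 basal markers tested, 7 had a positive log2 fold change, with a median of 0.24. Without KO replicate 2 these were 8 of 10 and 0.31.

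The Serpina3 genes of clade A were lower in KO, while Serpine2 of clade E and the clade B genes Serpinb6a and Serpinb8 were higher in both KO libraries than in both WT libraries. Serpina3n was the member with the smallest p, and its mean stood at 31.3 ± 4.79 CPM in KO and 123.4 ± 38.2 CPM in WT (SD, n = 2 each). None of these differences passed the edgeR quasi-likelihood test over all 15364 genes tested, in which 0% of genes were called higher and 0% lower at a Benjamini-Hochberg adjusted p under 0.05. Of the members, 22 passed the low-count filter of that test, 0 were called, and 2, Serpina3n and Serpina3m, had an unadjusted p under 0.05, against 0.364% of all tested genes that lay lower in KO at that p and 0.592% that lay higher. DESeq2 called Serpina3n lower in KO (adjusted p = 0.0131), and no other member. It called 1 of 13874 genes lower (0.00721%), which was Serpina3n itself, and 0.0216% higher. An exact permutation test of 2 against 2 libraries cannot go below 0.333. Nothing states that the libraries of a genotype came from separate pools, and the p-values reflect only how far these libraries differ, in part perhaps for technical reasons.

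Among the 11 members at a mean of 5 CPM or more, both KO libraries were above both WT libraries in 4 and below them in 1. In protein-coding genes of that level the shares were 18.5% higher and 14.7% lower in KO. KO replicate 1 alone lay above both WT libraries in 5 of the 11 and below both in 1, where 34.3% and 29.6% of those genes did. Both KO libraries lay under 50% of the WT mean in 1 of the 11, Serpina3n, where 0.697% of protein-coding genes of that level did, and in 9 of all 28 members, where 9.64% of those with the minimum count did. The 9 were the 5 Serpina3 genes and Serpinb9b, Serpinb9e, Serpinb9f and Serpinb12. The sums of these last genes were 19 to 32 counts, and Serpinb12 had 0 and 0 counts in KO and 0 and 20 in WT. Each of them reached the minimum count through WT replicate 1 or WT replicate 2 alone. Their low KO values thus followed from how members were chosen and are no result, so the 9 are not read as an excess. The median log2 fold change of these 11 members was 0.28, against 0.05 for protein-coding genes of that level, and without KO replicate 2 it was 0.20, against 0.01. Over the 28 members, KO lay below WT in 6 and above it in 4, where the shares of protein-coding genes with the minimum count were 17.8% and 12.9%. KO replicate 1 alone lay below both WT libraries in 6 and above both in 9, where 28.3% and 32.7% of those genes did. Summed over all 28 members, serpin RNA made up 770.1 and 667.2 CPM in KO and 690.1 and 765.8 CPM in WT. The family total overlapped between genotypes.

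**Figure D1:**
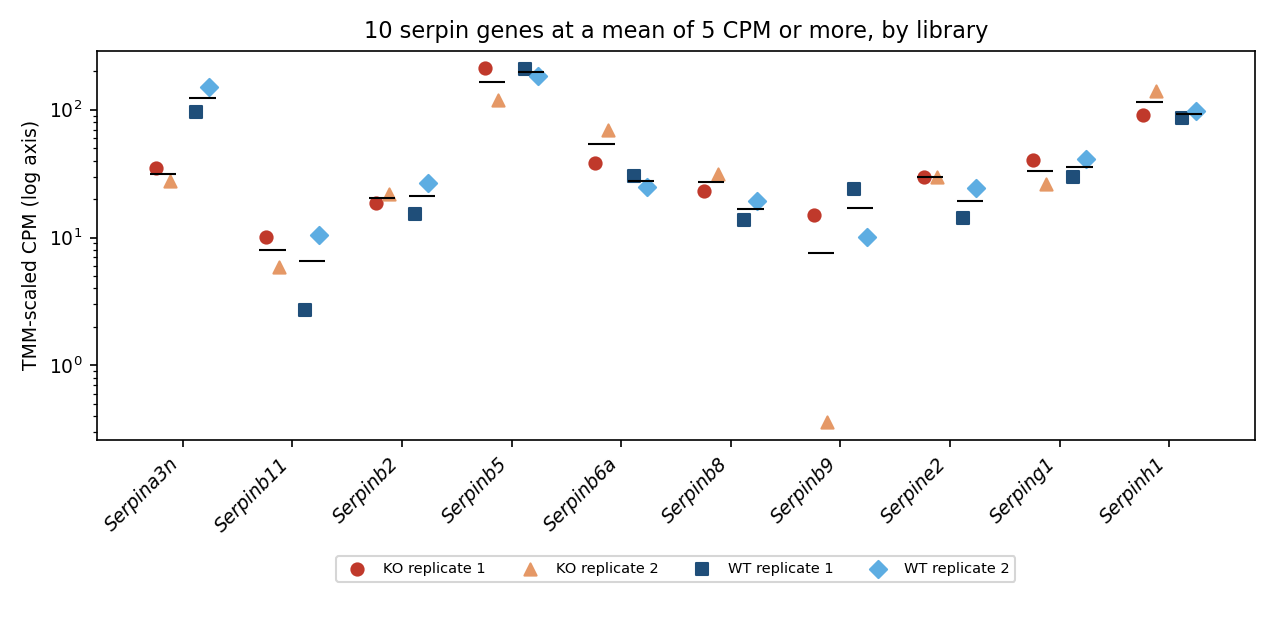
TMM-scaled CPM (log axis) of 10 serpin genes with a mean of 5 CPM or more, 1 point per library, with KO left of WT and a bar at each group's mean. Serpina3n is low in both KO libraries, Serpine2, Serpinb6a and Serpinb8 are high in both, and Serpinb9 has 0.36 CPM in KO replicate 2.

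Serpina3n encodes a secreted inhibitor that is known to block granzyme B and leukocyte elastase in mice. It had 2181 and 1165 counts in KO and 5430 and 8950 counts in WT, which is 34.7 and 27.9 CPM in KO and 96.4 and 150.4 CPM in WT. The libraries did not overlap between genotypes, and the KO libraries differed less from each other than the WT libraries did. The log2 fold change was -1.98 ± 0.36 (SE; edgeR adjusted p = 0.9989), second by p among all tested genes. With KO replicate 1 alone against WT it was -1.83 ± 0.32 (edgeR adjusted p = 0.9998). Fewer cells of a type that makes an RNA and less RNA per cell cannot be told apart in these bulk libraries.

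The other Serpina3 genes were scarcer, and each was lower in both KO libraries than in both WT libraries. Each had 0 counts in KO replicate 2, so this rests on KO replicate 1. That library lay below both WT libraries in 28.3% of protein-coding genes with the minimum count. Serpina3g, known in mice as an inhibitor of cysteine cathepsins, had 7 and 0 counts in KO and 119 and 90 in WT. Serpina3m had 2 and 0 counts in KO and 100 and 240 in WT. Serpina3i had 19 and 0 counts in KO and 68 and 193 in WT. Serpina3f had 25 and 0 counts in KO and 61 and 56 in WT. Of these, KO replicate 1, a library as rich in detected genes as WT, lay nearest to WT for Serpina3f. The pseudogenes of the cluster, which are no members, ran the same way, with 6 and 0 counts of Serpina3h in KO against 272 and 518 in WT, and 30 and 0 counts of Serpina3e-ps in KO against 171 and 239 in WT.

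Fitted log2 fold changes of the scarce genes depend on the prior count, since KO replicate 2 was at 0. They were -7.23 ± 2.27 for Serpina3m, -4.93 ± 2.36 for Serpina3g, -3.84 ± 2.44 for Serpina3i and -2.32 ± 2.39 for Serpina3f (edgeR adjusted p = 0.9989 for each). Without KO replicate 2 they were -6.42 ± 1.52, -4.00 ± 1.51, -2.87 ± 1.34 and -1.34 ± 1.53 in the same order. A count of 0 in KO replicate 2 allows 3 counts, or 0.0719 CPM, for counting error only. Together these 4 members had 0.843 and 0 CPM in KO and 6.18 and 9.73 CPM in WT.

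**Figure D2:**
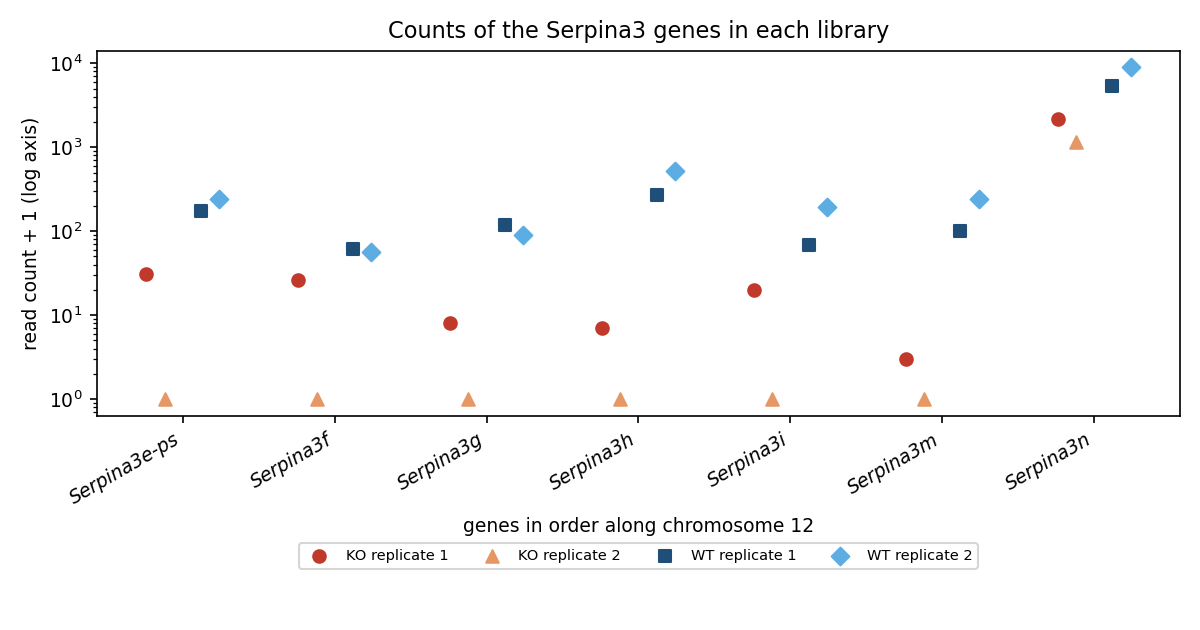
Read counts plus 1 (log axis) of the 5 Serpina3 members and the pseudogenes Serpina3e-ps and Serpina3h in the 4 libraries, in order along chromosome 12. For each gene both KO points lie below both WT points, and 6 of the 7 genes have 0 counts in KO replicate 2, the library with few genes detected. KO replicate 1 lay below both WT libraries in 28.3% of protein-coding genes with the minimum count.

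The Serpina3 genes are close copies, so reads of 1 gene could be counted under another. In windows of 50 bases, 6.9% of those in the Serpina3n transcript also occurred in a transcript of another gene, and 10.6% to 19.1% of those in Serpina3f, Serpina3g, Serpina3i and Serpina3m did. With Serpina3n itself the shared windows were 0.917% for Serpina3f, 2.33% for Serpina3g, 0% for Serpina3i, 1.12% for Serpina3m, 0% for Serpina3h and 4.58% for Serpina3e-ps. These shares describe how alike the genes are and not the reads, whose length and treatment when placed at several sites no source used here gives. Each file listed 0 reads as not uniquely aligned.

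The 6 relatives were also scarcer beside Serpina3n itself. Their summed counts were 89 and 0 in KO and 791 and 1336 in WT. As a share of their counts plus those of Serpina3n, this was 3.92% (exact 95% binomial interval 3.16 to 4.80) and 0% (0 to 0.316) in KO, and 12.7% (11.9 to 13.6) and 12.99% (12.3 to 13.65) in WT. The WT libraries overlapped each other and lay above both KO libraries, for counting error only. KO replicate 2 lacked counts for many genes, so its 0% is no result by itself. The comparison therefore rests on KO replicate 1. Among single genes, the share of Serpina3f was 1.13% in KO replicate 1, against 1.11% and 0.622% in WT, and did not part the genotypes in that library, while that of Serpina3h was 0.274%, against 4.77% and 5.47%. The part of shared reads in these counts was not tested.

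**Figure D3:**
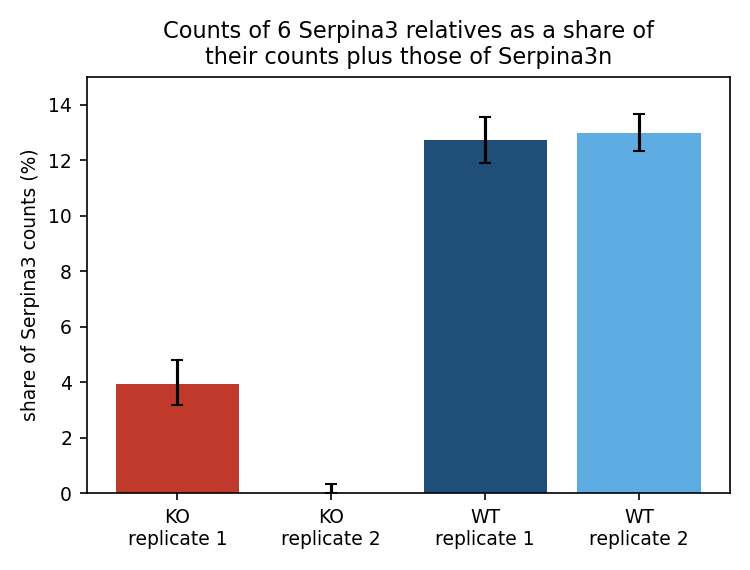
Summed counts of Serpina3f, Serpina3g, Serpina3i, Serpina3m, Serpina3h and Serpina3e-ps as a percentage of those counts plus the counts of Serpina3n, 1 bar per library, with exact 95% binomial intervals. The share is 3.92% and 0% in KO and 12.7% and 12.99% in WT, and the 0% belongs to KO replicate 2, the library with few genes detected.

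The neighbors of the serpin genes on chromosome 12 were mixed in direction. Among the 12 protein-coding genes listed on either side of the clade A run, 13 in all were tested. KO lay below WT in 1 of them and above it in 2, where 19.2% and 13.2% of all tested genes did. Their log2 fold changes ran from -1.45 for Asb2, which had 65 and 1 counts in KO and 104 and 63 in WT, to 1.04 for Ddx24. Dicer1, the microRNA-processing enzyme next to the run, stood at 264.6 and 421.3 CPM in KO and at 301.3 and 317.6 CPM in WT.

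The remaining clade A members were near the floor. Serpina1d, an alpha-1-antitrypsin gene, had 16 and 0 counts in KO and 0 in each WT library, and 50.9% of its windows of 50 bases are shared with other genes. Serpina9, known from germinal center B cells, had 42 and 1 counts in KO and 54 and 1 in WT. Its counts differed between the replicates of a genotype and not between genotypes. The clade A genes Serpina5, Serpina6, Serpina7 and Serpina10 had no count.

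Serpine2 encodes protease nexin-1, an inhibitor of thrombin and plasminogen activators, and stood at 29.8 and 29.65 CPM in KO and at 14.3 and 24.3 CPM in WT (log2 fold change 0.62 ± 0.51, and 0.63 ± 0.42 without KO replicate 2). The KO libraries were nearly equal, and the WT libraries differed by more than the gap between WT replicate 2 and KO. Serpine3, a little-studied member, had 52 and 13 counts in KO and 93 and 55 in WT, with both KO libraries lower in CPM.

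Fibroblasts are known to make Serpine2 as well. Of 11 fibroblast markers with a row, 3 were higher in both KO libraries than in both WT libraries and 2 were lower, where 13.2% and 19.2% of all tested genes were, and none was at 0 in all libraries. Their median log2 fold change was 0.16, and 0.02 without KO replicate 2, and the most abundant, the matrix gene Fbn1, stood at 399.1 and 487 CPM in KO and at 383.8 and 406.8 CPM in WT. Their summed level was 857.3 and 1104 CPM in KO and 693 and 778.1 CPM in WT. Adipocyte markers summed to 43.7 and 150.8 CPM in KO and to 28.2 and 42.4 CPM in WT over 8 genes, of which 3 passed the filter. Their leading gene Fabp4 stood at 32.2 and 138.8 CPM in KO and at 14.8 and 28.3 CPM in WT. The part of such cells in the values of Serpine2 was not tested.

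Clade B held the most abundant serpin per length. Serpinb5, which encodes maspin, a member of the family that does not inhibit proteases, averaged 65.4 CPM per kilobase of exon, against 42.2 for Serpinh1 and 37.5 for Serpina3n. Serpinb5 stood at 210.2 and 118.2 CPM in KO and at 209.3 and 181.9 CPM in WT. KO replicate 1 lay next to WT replicate 1, and KO replicate 2 was the lowest, so the log2 fold change of -0.25 ± 0.34 became 0.11 ± 0.18 without that library.

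Serpinb6a, an intracellular inhibitor related to human SERPINB6, which blocks cathepsin G, stood at 38.5 and 69.6 CPM in KO and at 30.35 and 24.9 CPM in WT. Its log2 fold change was 0.97 ± 0.45 (edgeR adjusted p = 0.9989), and 0.48 ± 0.33 without KO replicate 2. Serpinb8, whose human counterpart inhibits furin, stood at 23.2 and 31.2 CPM in KO and at 13.8 and 19.45 CPM in WT. Its log2 fold change was 0.71 ± 0.52, and 0.48 ± 0.40 without KO replicate 2. Both genes had their highest value in KO replicate 2, and in KO replicate 1 they lay above both WT libraries by a smaller gap.

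Serpinb2 encodes PAI-2, an inhibitor of the plasminogen activators, and carries the 8mer match printed above. It stood at 18.7 and 22.1 CPM in KO and at 15.3 and 26.6 CPM in WT, so that the WT libraries enclosed the KO libraries (log2 fold change -0.04 ± 0.55, and -0.16 ± 0.45 without KO replicate 2). Of its windows of 50 bases, 10.4% occur in another gene. Serpinb9, an inhibitor of granzyme B, stood at 14.9 and 0.36 CPM in KO and at 24.2 and 10.15 CPM in WT. Its level in KO replicate 1 lay between the WT libraries, and the log2 fold change was -1.17 ± 1.61, and -0.20 ± 0.57 without KO replicate 2. Serpinb11 stood at 10.1 and 5.90 CPM in KO and at 2.73 and 10.4 CPM in WT, with overlap (log2 fold change 0.28 ± 1.05, and 0.62 ± 0.78 without KO replicate 2).

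Below 5 CPM, Serpinb6b, with the 7mer-m8 match, had 419 and 0 counts in KO and 165 and 191 in WT. KO replicate 1 was the highest library and KO replicate 2 the lowest. Serpinb1a, an inhibitor of neutrophil elastase, had 73 and 0 counts in KO and 44 and 132 in WT. The other 5 clade B members, Serpinb6c, Serpinb9b, Serpinb9e, Serpinb9f and Serpinb12, summed to 19 to 32 counts each, were not tested, and had no count in KO replicate 2. Of the windows of 50 bases in Serpinb9f, 78.7% occur in another gene, so its counts are uncertain.

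Serpinh1 is the collagen chaperone HSP47 of the endoplasmic reticulum, a serpin fold without protease inhibition. It stood at 90.4 and 138.9 CPM in KO and at 86.4 and 97.1 CPM in WT, and the groups overlapped, since KO replicate 1 lay between the WT libraries. The log2 fold change was 0.32 ± 0.31, and -0.02 ± 0.22 without KO replicate 2. Serping1, the C1 inhibitor of complement and of the contact system, stood at 40.6 and 26.3 CPM in KO and at 29.8 and 41.05 CPM in WT, also with overlap (log2 fold change -0.08 ± 0.46, and 0.20 ± 0.33 without KO replicate 2). Serpini1, neuroserpin, had 293 and 1 counts in KO and 231 and 253 in WT. Serpinc1, antithrombin, had 70 and 0 counts in KO and 32 and 23 in WT. Serpind1, heparin cofactor, had 48 and 0 counts in KO and 16 and 68 in WT. In each of these last genes KO replicate 2 was the lowest library.

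**Figure D4:**
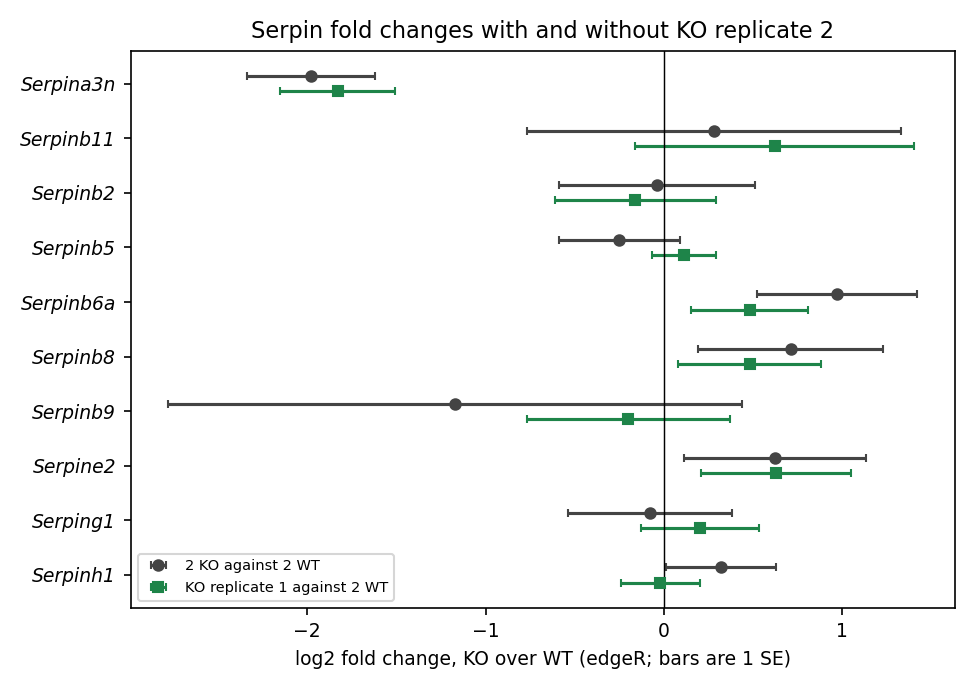
Log2 fold changes of KO over WT from edgeR with bars of 1 SE for 10 serpin genes at a mean of 5 CPM or more, for 2 KO libraries against 2 WT and for KO replicate 1 against the same WT. Serpina3n stays near -1.98 and -1.83, Serpine2 near 0.62 and 0.63, and Serpinb5, Serping1 and Serpinh1 change sign.

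Targets and partners of the serpins were read from 11 lists, and none of their members was called in either direction by edgeR. Over all tested genes, 6569 of 15364 had a positive fold change, the median was -0.14 (-0.02 without KO replicate 2), and 13.2% lay higher and 19.2% lower in both KO libraries than in both WT libraries. In plasminogen activation, 7 of 12 tested genes had a positive fold change, with a median of 0.10 (0.20 without KO replicate 2). Plat, which encodes tPA, a target of protease nexin-1, stood at 178.3 and 307.2 CPM in KO and at 116.4 and 119.3 CPM in WT. The KO libraries lay above WT, and its log2 fold change was 1.04 ± 0.32 (edgeR adjusted p = 0.9989; 0.60 ± 0.18 without KO replicate 2). Plgrkt, a plasminogen receptor, stood at 6.84 and 23.0 CPM in KO and at 5.96 and 6.09 CPM in WT. Timp3, a metalloproteinase inhibitor that was the most abundant of this list and of the list of other inhibitors, stood at 1137 and 1042 CPM in KO and at 1626 and 1092 CPM in WT. Plau, which encodes uPA, stood at 95.1 and 58.9 CPM in KO and at 75.9 and 95.8 CPM in WT. Plaur, its receptor, stood at 201 and 63.4 CPM in KO and at 174.5 and 194.3 CPM in WT, and both were named after their values were seen. The protease gene Plat and its inhibitor gene Serpine2 were high in both KO libraries, while Plau and Plaur overlapped.

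Receptors that clear serpin complexes had 6 of 7 positive fold changes and a median of 0.55, which without KO replicate 2 became 4 of 7 and 0.07. Lrp1, which takes up serpin and protease complexes, stood at 586.3 and 888.3 CPM in KO and at 464.4 and 541.6 CPM in WT (log2 fold change 0.55 ± 0.27, and 0.22 ± 0.15 without KO replicate 2). Sorl1 stood at 219.6 and 452.9 CPM in KO and at 206.5 and 150.3 CPM in WT (0.91 ± 0.41, and 0.30 ± 0.22). Both had their highest value in KO replicate 2. Thrombin and coagulation genes were split, 7 positive and 7 negative of 14, with a median of -0.12 (0.17 without KO replicate 2). Pros1, protein S, stood at 226.7 and 311.8 CPM in KO and at 192.5 and 192.2 CPM in WT. F2rl3, a thrombin receptor gene, had 6 and 0 counts in KO and 150 and 19 in WT.

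Among cysteine cathepsins and cystatins, 9 of 16 were positive, with a median of 0.12 (0.19 without KO replicate 2). In both KO libraries 6 of the 16 were higher than in both WT libraries and 1 was lower, beside the 13.2% and 19.2% of all tested genes. Ctsa, a lysosomal carboxypeptidase placed in this list, stood at 56.8 and 105.6 CPM in KO and at 32.7 and 45.9 CPM in WT. Ctsb, a lysosomal protease, stood at 364.6 and 452.7 CPM in KO and at 292.2 and 318.3 CPM in WT. Ctsl stood at 1109 and 535.8 CPM in KO and at 967.5 and 889.6 CPM in WT. The KO libraries lay above WT for Ctsa and Ctsb, and enclosed WT for Ctsl.

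Leukocyte and mast cell serine proteases, the known targets of Serpina3n and of several clade B serpins, were near 0, with a summed level of 0.891 and 0 CPM in KO and 0.426 and 1.85 CPM in WT over 11 genes, of which 4 had no count. Gzmb was the 1 tested gene of that list, at 0.223 and 0 CPM in KO and 0.195 and 0.0168 CPM in WT, and the mast cell gene Mcpt4, the most abundant, had 0 CPM in each library but WT replicate 2, which had 1.19 CPM. Kallikreins had a median of -0.51 over 6 genes (-0.71 without KO replicate 2). Klk10 stood at 1.58 and 2.13 CPM in KO and at 3.51 and 18.2 CPM in WT, and Klk9 at 0.398 and 9.83 CPM in KO and at 0.408 and 2.51 CPM in WT.

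Membrane-anchored serine proteases with their Kunitz inhibitors had 5 of 15 positive fold changes and a median of -0.32 (-0.29 without KO replicate 2). Fap, a serine protease gene known from activated fibroblasts, had 2 and 0 counts in KO and 72 and 40 in WT. Htra3 stood at 0.286 and 0 CPM in KO and at 0.0887 and 1.35 CPM in WT, and Epcam, the most abundant of the list, at 460.3 and 651.3 CPM in KO and at 425.1 and 574.9 CPM in WT. The other protease inhibitors had 6 of 12 positive and a median of -0.02 (0.03 without KO replicate 2). Pi15 stood at 8.496 and 0.863 CPM in KO and at 8.34 and 24.8 CPM in WT, and Pi16 at 0.159 and 4.63 CPM in KO and at 0.302 and 0 CPM in WT.

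Complement and contact genes had 5 of 10 positive and a median of -0.30 (-0.07 without KO replicate 2). The complement gene C4b stood at 64.9 and 40.7 CPM in KO and at 62.3 and 112.4 CPM in WT. C1s1, a target of the C1 inhibitor, stood at 46.05 and 108.6 CPM in KO and at 50.6 and 47.5 CPM in WT, and C3 at 334.7 and 181.6 CPM in KO and at 260.2 and 237.8 CPM in WT. These 3 genes overlapped between genotypes. Procollagen folding genes, partners of Serpinh1, had 7 of 18 positive and a median of -0.11, which without KO replicate 2 became 11 of 18 and 0.07. P4ha1, a prolyl hydroxylase subunit, stood at 31.6 and 79.8 CPM in KO and at 24.95 and 28.02 CPM in WT. P3h2, another prolyl hydroxylase, stood at 86.5 and 66.2 CPM in KO and at 98.4 and 118.3 CPM in WT, and the chaperone Hspa5 at 1376 and 1052 CPM in KO and at 1070 and 1276 CPM in WT.

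Acute phase and STAT3-response genes, a group to which Serpina3n is known to belong in other tissues, had 11 of 17 positive fold changes and a median of 0.09 (0.05 without KO replicate 2). In both KO libraries 4 of the 17 were higher than in both WT libraries and 1 was lower, beside 13.2% and 19.2% of all tested genes. Lcn2, lipocalin, was among the higher ones, at 1255 and 1457 CPM in KO and 926 and 1102 CPM in WT. Its log2 fold change was 0.42 ± 0.20, and 0.31 ± 0.14 without KO replicate 2. Junb, an AP-1 subunit, stood at 89.75 and 189.4 CPM in KO and at 76.6 and 76.8 CPM in WT. Osmr, the oncostatin M receptor, stood at 1197 and 1274 CPM in KO and at 1177 and 1143 CPM in WT. Stat3 and Socs3 were not analysed here. The part of this response in the Serpina3n values was not tested.

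Markers of other cells were read beside the low Serpina3 genes. Luminal progenitor markers summed to 3100 and 4461 CPM in KO and to 2975 and 3986 CPM in WT, with 4 of 12 lower in both KO libraries and 1 higher, beside 19.2% and 13.2% of all tested genes, and a median log2 fold change of 0.01 (-0.62 without KO replicate 2). Plet1, the most abundant, stood at 1059 and 1857 CPM in KO and at 1209 and 1549 CPM in WT. The luminal progenitor list also includes Lcn2, so its sum follows that gene in part. Lcn2 stood at 1255 and 1457 CPM in KO and at 926 and 1102 CPM in WT. Endothelial markers had 10 of 11 negative fold changes and summed to 226.7 and 130.8 CPM in KO and to 158.1 and 275.1 CPM in WT, and Cdh5 led them at 83.1 and 42.1 CPM in KO and at 41.99 and 89.96 CPM in WT. Their median was -0.56 (-0.13 without KO replicate 2). Immune markers summed to 99.0 and 319.1 CPM in KO and to 68.3 and 150.1 CPM in WT, most of it Cd74, at 71.9 and 289.2 CPM in KO and at 56.1 and 136.4 CPM in WT. Pericyte markers, led by Mcam, summed to 198.1 and 225.2 CPM in KO and to 159.7 and 278.6 CPM in WT, and hormone-sensing luminal markers, led by Prlr, to 129.1 and 355.4 CPM in KO and to 136.2 and 224.3 CPM in WT. Median log2 fold changes were -0.32 for hormone-sensing luminal, 0.21 for immune and 0.09 for pericyte markers. Without KO replicate 2 they were -0.29, -0.36 and -0.18 in the same order. In that setting 2 of 12 luminal progenitor and 0 of 9 hormone-sensing luminal markers had a positive fold change, against 6 and 3 with all libraries. For immune, pericyte and endothelial markers these were 3 of 8, 3 of 8 and 4 of 11, against 4, 4 and 1 with all libraries. None of these sums was lower in both KO libraries than in both WT libraries, but a sum follows its most abundant genes. The part of such cells in the Serpina3 values was not tested.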

How the data were processed

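Whole-number read counts per Ensembl gene were deposited by the authors, 1 file per library. TopHat2 2.02 and HTSeq and the build NCBIM37 (mm9) are named in the submitters' processing notes. No source used here gives the annotation release or strand setting, and without strand antisense partners cannot be told apart. The 5 summary rows of each file (reads outside genes, 57.6% to 61.5%; ambiguous, 0.71% to 0.79%) stayed out of library sizes and tests. Symbols, biotypes and exon lengths came from GENCODE M21 (GRCm38) by gene identifier (86.9% of rows, 98.6% of counts).

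All genes were tested with edgeR 4.0.16 (R 4.3.3): filterByExpr defaults, TMM scaling, quasi-likelihood testing for genotype, no replicate block. CPM are TMM-scaled, fold changes are log2 ratios, KO over WT, and each SE was computed as the fold change over the root of the F statistic. Alternatives were RLE and upper quartile scaling, DESeq2 1.42.0, limma voom (3.58.1), all genes unfiltered, only genes at a mean CPM of at least 5, a replicate block, and each library left out, where a lone library is assumed to vary like the others. The procedure was tested on simulated counts, in which only genes at 5 CPM or more were altered. All simulated libraries shared the same gene means and dispersions before alteration. The simulation thus covers neither the scarce genes nor a library like KO replicate 2. Members and lists were chosen with earlier results of these data known. Named genes were all members, the 2 partner genes with the smallest p and the most abundant 1 of each list, and the leading markers; others were chosen after their values were seen. Counts and sums cover all members, of which 1 is not reported here by its own values. Binomial intervals and floors (3 counts) describe counting error alone, as amplified reads are not separate molecules. Tables and sequence searches used Python 3.11.15.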

Additional observations from a re-analysis of the deposited data

How the results depend on the processing

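Serpina3n kept its direction in every setting tried, with log2 fold changes from -2.27 to -1.62 with a library left out and edgeR, DESeq2 or limma adjusted p-values from 0.00494 to 1. It was called with DESeq2 (log2 fold change -1.98, adjusted p = 0.0131) and without KO replicate 1 (edgeR log2 fold change -2.15, adjusted p = 0.00494), where the lone KO library is the one with few genes detected. Genes called numbered 0 in edgeR, 4 with DESeq2 and 0 to 5724 with a library left out (5724 without KO replicate 1, 5 without WT replicate 1 and 5 without WT replicate 2). Serpin members called numbered 0, 1 with DESeq2 and 0 to 11 with a library left out, the 11 being without KO replicate 1. The median log2 fold change of the tested members, -0.37, was -1.56 with limma voom, -1.61 with the replicate block, and -5.79 to 0.04 with a library left out. With the replicate block 0 genes were called. Deviations of KO replicate 1 and WT replicate 1 from their group means had a correlation of 0.00973. With 2 libraries per genotype and KO replicate 2 standing apart, this value cannot tell whether shared numbers pair samples. The main test took no pairing, since no source used here states one.

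Over the other 21 tested members, 189 of 220 values kept direction and side of the threshold, 22 changed sign and 10 became called, each without KO replicate 1. Of the 10, Serpinb6b also changed sign. With limma voom the changed signs were 0.11 for Serpina9, -3.20 for Serpinb6b and -1.91 for Serpinc1, and with the replicate block 0.01 for Serpinb2, -3.20 for Serpinb6b and -2.11 for Serpinc1. Leaving out a library gave -4.22 to 4.2 for Serpina9, -0.38 to 1.55 for Serpinb11, -0.39 to 0.42 for Serpinb2, -0.73 to 0.11 for Serpinb5, -10.34 to 1.12 for Serpinb6b, -7.66 to 1.22 for Serpinc1, -8.24 to 0.43 for Serpind1, -0.43 to 0.20 for Serping1, -0.02 to 0.59 for Serpinh1 and -7.31 to 0.16 for Serpini1. The cause was not tested. Upper quartile scaling moved fold changes by a median of -0.09 and turned none of the members. For genes at 0 counts in KO replicate 2, the fitted size of the fold change depends on the prior count. Why that library lacks counts for them was not tested.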
